A study of Tachysurus vachellii with 12 samples.

Results

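miR-462 and miR-731 are microRNAs that are known from bony fishes, and their levels in catfish liver are described here across 6 small RNA libraries. They were found in the deposited small RNA table by name, as entries holding miR-462 or miR-731 with no further digit after the number. This picked 2 of 613 entries, 1 for each microRNA, and they are 2 of the 545 mature sequences in the table when each sequence is taken once. The libraries come from juvenile Tachysurus vachellii (Pelteobagrus vachelli in the series title), a freshwater catfish of Asia, all held in the same 3 recirculating aquaria and killed under eugenol anaesthesia. Control livers were taken at an oxygen concentration of 6.8 mg/L. Hypoxia livers were taken from the same aquaria after nitrogen bubbling had brought oxygen to 0.7 mg/L and held it there for 4 h, so handling, nitrogen and the later sampling time go with the group. Each group has 3 pools lettered a, b and c, each pool is made of 5 livers, and an mRNA library exists for each group and letter beside the small RNA library. No label says that a letter marks the same aquarium in both groups, or the same pool in both kinds of library.

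A microRNA is a short RNA that an Argonaute protein carries to messages with a matching site, which lowers their stability or translation, and its bases 2 to 8, the seed, do most of the matching. In zebrafish the genes of miR-462 and miR-731 lie side by side and are made as 1 cluster, so both can come from 1 primary transcript. Work in zebrafish described the cluster as raised by low oxygen through hypoxia-inducible factor 1 alpha (HIF-1 alpha), and work in several fishes described it as raised by viral infection and interferon. By their seeds the pair corresponds to miR-191 and miR-425, which also lie together in mammals.

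The mature sequences of both members are shown first because the comparisons below turn on their seeds. They are printed 5′ to 3′ as in the deposited table, with bases 2 to 8 in capitals.
miR-462: tAACGGAAcccataatgcagctg
miR-731: aATGACACgttttctcccggatt
Each is 23 bases long. The entry of miR-462 is named after the zebrafish sequence (dre-miR-462_R+1) and that of miR-731 after the medaka sequence (ola-miR-731_R+5). The members share no run of bases longer than 4 with each other. The longest run that any other entry shares is 8 bases with miR-462 and 9 bases with miR-731. The opposite arm of either hairpin was not analysed here.

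miR-462 was the more abundant member, and its mean levels in control and hypoxic liver differed by less than the spread among pools. Its raw counts were 7816, 14238 and 10271 in control a, b and c, and 9838, 13048 and 14819 in hypoxia a, b and c. Scaled to counts per 1000000 (CPM) with TMM factors, which correct for differences in library make-up, its level was 1236, 2007 and 2536 CPM in control pools a, b and c. In hypoxia a, b and c it was 1652, 1972 and 2407 CPM. On this scale control a was the lowest and control c the highest of all 6 libraries, and the hypoxia values lay inside the range of the controls. Scaled by raw library totals, hypoxia a was instead the lowest (1410 CPM) and hypoxia c the highest (2289 CPM). The means were 1927 ± 654 CPM in control and 2010.5 ± 379 CPM in hypoxia (SD, n = 3). Between groups the log2 fold change, hypoxia minus control, was 0.06 (SE 0.30, 95% interval -0.64 to 0.76, edgeR quasi-likelihood test, adjusted p = 0.94), so its level did not pass the test. As folds the interval runs from 0.644 to 1.69. Its sign turned without control a (log2 fold change -0.18) and without hypoxia c (-0.08), and neither passed.

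miR-731 was less abundant, and its mean level was lower in hypoxia than in control by less than the spread among pools. Its raw counts were 1766, 2366 and 2781 in control a, b and c, and 1352, 1943 and 3046 in hypoxia a, b and c. These correspond to 279, 334 and 687 CPM in control pools a, b and c. They correspond to 227, 294 and 495 CPM in hypoxia pools a, b and c. Library c was the highest of its group on both sides, and the groups overlapped. The means were 433 ± 221 CPM in control and 339 ± 139 CPM in hypoxia (SD, n = 3), with a log2 fold change of -0.36 (SE 0.43, 95% interval -1.36 to 0.64, adjusted p = 0.78 in edgeR). The fold of hypoxia over control was 0.813 for letter a, 0.88 for letter b and 0.72 for letter c. For miR-462 the same folds were 1.34, 0.983 and 0.949, so with TMM factors that member stood higher in hypoxia only in letter a. Scaled by raw library totals, miR-462 stood higher in hypoxia only in letter c (2289 CPM against 2202 CPM in control). In letter a it was then lower, with 1410 CPM against 1733 CPM in control. The folds of both members rest on a pairing by letter that no label gives. Across letters, hypoxia b of miR-731 (294 CPM) lay above control a (279 CPM). Leaving out control c alone gave miR-731 a log2 fold change of 0.06 (edgeR adjusted p = 0.98), and leaving out hypoxia c alone gave -0.73 (adjusted p = 0.43). Without both c libraries, which keeps the letters matched, it was -0.24 (adjusted p = 0.81).

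**Figure D1:**
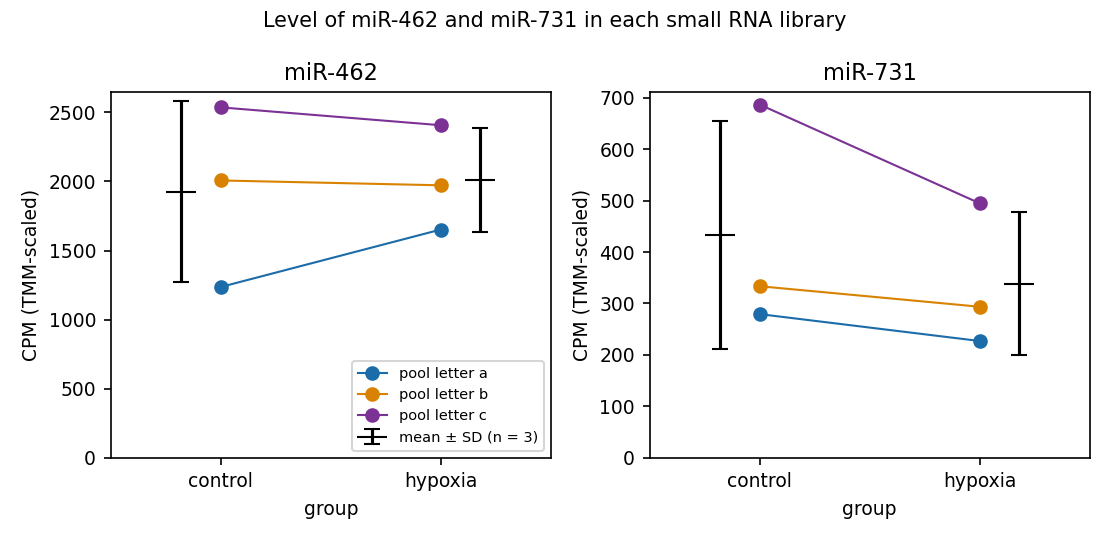
Level of miR-462 (left) and miR-731 (right) in CPM on axes that start at 0, with 1 point per small RNA library, lines that join the control and hypoxia libraries of the same letter, and the mean ± SD of each group (n = 3) in black. With the TMM factors used here, the hypoxia end of all 3 miR-731 lines is the lower one, at 227, 294 and 495 CPM against 279, 334 and 687 CPM. For miR-462 the hypoxia end is the higher one for letter a only, while with raw library totals it would be so for letter c only.

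None of the 2 members passed the threshold of adjusted p under 0.05, against 1 of 238 sequences tested (0.42%), and 22 of the 238 had an unadjusted p under 0.05. DESeq2 and limma-voom also called neither member. By unadjusted p miR-731 came at place 129 and miR-462 at place 214 of the 238. The sequence that passed, named after the values were seen, was an arm of miR-210, the microRNA best known as a target of HIF in vertebrates (ola-miR-210-5p_R+2_1ss20TC). It had 64.5, 69.1 and 101 CPM in control pools a, b and c and 440 CPM, 416 CPM and 278 CPM in hypoxia pools a, b and c (log2 fold change 2.27, edgeR adjusted p = 0.025). That call ended when any single a or b library of either group was left out (adjusted p 0.0996 to 0.198 in edgeR) and with raw library totals (0.053), with log2 fold changes of 2.09 to 2.22. The miR-210 call held in DESeq2 (adjusted p = 1.84e-07), in limma-voom (adjusted p = 0.019) and with upper-quartile scaling (edgeR adjusted p = 0.013). Groups that did not overlap were found for 0 of the 2 members and for 47 of the 238 sequences tested (19.7%). The authors' deposited table gives p-values of 0.878 for miR-462 and 0.531 for miR-731 from their own test on normalized values. In that table the authors' mean of miR-462 is 11469 in control and 11870 in hypoxia, and that of miR-731 is 2560 and 1987.

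The spread between pools was far larger than counting error for both members. The counting error of a single library was 0.821% to 1.13% of the value for miR-462 and 1.81% to 2.72% for miR-731. With TMM factors, the coefficient of variation of miR-462 between pools of 1 group was 33.9% in control and 18.8% in hypoxia. That of miR-731 was 51.1% and 41.2%. The median over the 238 sequences tested was 30.1% in control and 23.4% in hypoxia, so miR-731 varied more than the median sequence in both groups. On the same scale the highest control pool of miR-731 stood 2.46-fold above the lowest, and the highest hypoxia pool 2.18-fold above the lowest. The order of the groups in spread depends on the scaling. With raw library totals miR-462 ran from 1733 to 2202 CPM in control and from 1410 to 2289 CPM in hypoxia, the wider range. miR-731 then ran from 336 to 596 CPM in control and from 194 to 470 CPM in hypoxia. In rank by level among 471 sequences with distinct values, miR-462 lay between place 29 and place 38 over the 6 libraries. In the same ranking miR-731 lay between place 52 and place 79.

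The ratio of the 2 members within a library needs no scaling between libraries. With 1 added to each raw count, miR-462 had 4.42, 6.02 and 3.69 counts for each count of miR-731 in control a, b and c. It had 7.27, 6.71 and 4.86 in hypoxia a, b and c. The ratio stood higher in hypoxia than in control within each of the 3 letters, by 1.64-fold, 1.12-fold and 1.32-fold, though no label gives this pairing. The groups overlapped because hypoxia c lay below control b. On the log2 scale the mean was 2.21 ± 0.36 in control and 2.63 ± 0.31 in hypoxia (SD, n = 3), a difference of 0.42. An exact two-sided permutation test over the 6 libraries gave p = 0.2, where 3 against 3 cannot go below 0.1. Without each library in turn the difference ran from 0.26 to 0.62. Both members have the same length, but ligation and amplification can favour 1 sequence over another, so the ratio is one of reads and not of molecules.

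**Figure D2:**
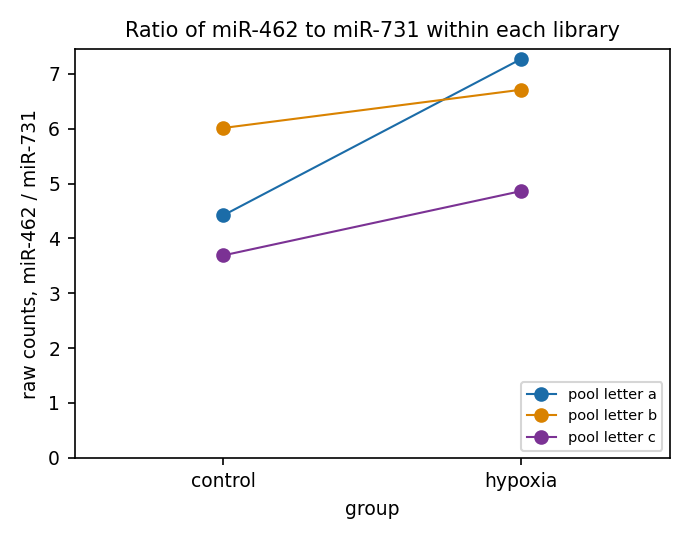
Raw counts of miR-462 divided by raw counts of miR-731, with 1 added to each, in each small RNA library, on an axis that starts at 0, with lines that join the same letter. The hypoxia end of all 3 lines is the higher one, at 7.27 against 4.42 for letter a, 6.71 against 6.02 for letter b and 4.86 against 3.69 for letter c. No label gives the pairing that the lines draw.

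**Figure D3:**
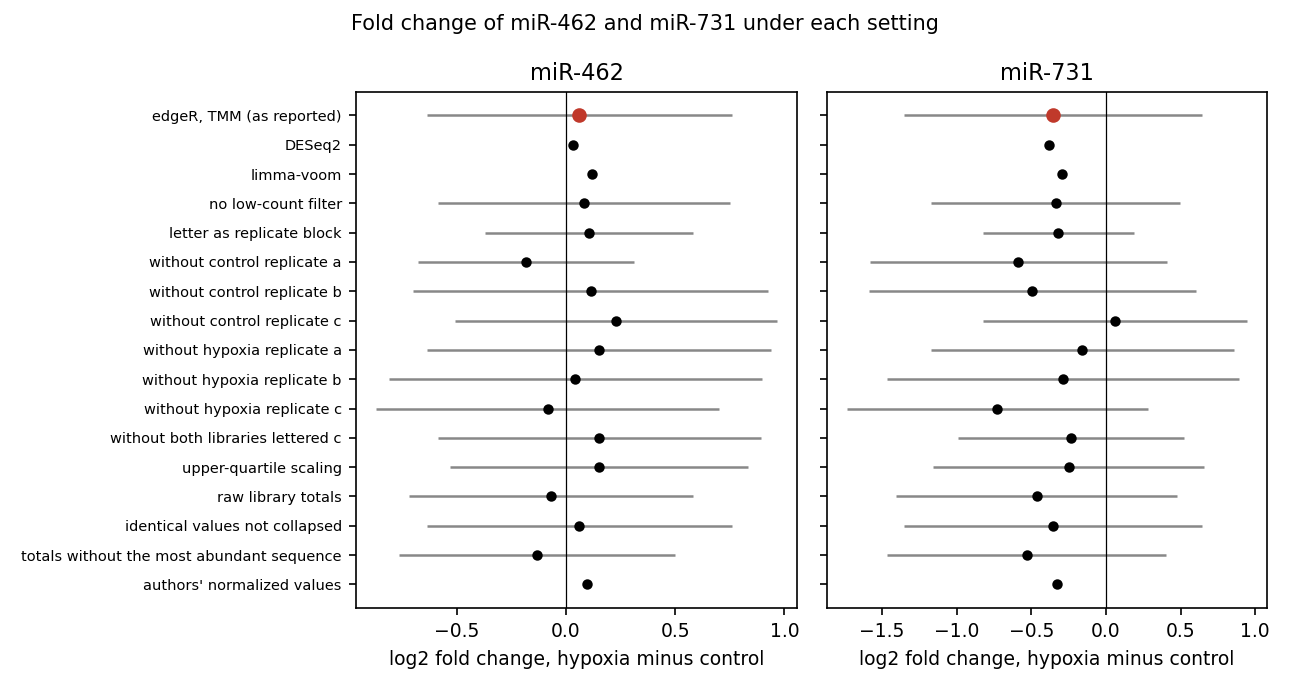
Log2 fold change (hypoxia minus control) of miR-462 (left) and miR-731 (right) as reported (red) and under 16 other settings (black), with 95% intervals where edgeR was used. The values of miR-462 run from -0.18 to 0.23 and those of miR-731 from -0.73 to 0.06, and every interval drawn spans 0.

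The plot of fold changes by setting shows how far each member moves with the scaling. Scaled by raw library totals, with no TMM factors, miR-462 had 1733 CPM, 2020 CPM and 2202 CPM in control pools a, b and c and 1410 CPM, 1984 CPM and 2289 CPM in hypoxia pools a, b and c. On that scale its log2 fold change was -0.07, so its sign turned, and that of miR-731 was -0.46. Control a was the library with the largest TMM factor (1.40, against 0.854 to 1.01 in the other 5), and the most abundant sequence, an arm of the hepatocyte microRNA miR-122, took 42.7% of its counts against 46.3% to 54.3% in the others. Every value of miR-462 lay within 0.23 of 0 under all 16 alternatives, and no alternative brought either member past the threshold (adjusted p 0.427 to 0.998).

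Few other sequences in the table share a seed with either member. They are shown because a microRNA with the same seed could act on the same sites, and the letters after the seed tell them apart. Whether the miR-191 and miR-425 entries come from the catfish itself was not established.
miR-191 entry (oha-miR-191-5p_R-1): cAACGGAAtcccaaaagcagct
predicted RNA (PC-3p-248952_2): gAACGGAAatccgagcacacgaaaa
miR-425 entry (tgu-miR-425-5p_R+3): aATGACACgatcactcccgctgagc
miR-425 entry (bta-miR-425-5p_L+1R-1): aATGACACgatcactcccgttg
With the members themselves, 3 sequences carry the seed of miR-462 and 3 carry that of miR-731, among 433 distinct seeds in the 545 sequences. The miR-191 entry, named after a snake sequence, equals miR-462 at 17 of 22 positions, and the substitutions counted from the 5′ end of miR-462 are T1C, C9T, A12C, T13A and T16A. The miR-425 entries, named after zebra finch and cattle sequences, equal miR-731 at 16 of 23 and 16 of 22 positions. Both share the substitutions T10A, T12C and T13A, just after the seed, and A21T and T22G near the 3′ end. The predicted RNA shares the seed of miR-462 and equals it at 11 of 23 positions, and it had 7 to 22 raw counts per library.

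The entries named miR-191 and miR-425 were rare beside the members. The miR-191 entry had 6.5, 7.5 and 24 raw counts in control a, b and c, and 6.5, 5 and 37.5 in hypoxia a, b and c. That is 0.0383% to 0.253% of the counts of miR-462 in the same library. Both miR-425-5p entries together had 9, 4 and 13 raw counts in control a, b and c, and 2, 4 and 19 in hypoxia a, b and c, or 0.148% to 0.624% of miR-731. For both of these microRNAs the c library was the highest of its group on both sides, as it was for both members in CPM. None of the 3 entries passed the filter on low counts, so none was tested. An entry of the opposite arm of miR-425 had 1 count in 1 library and 0 in the other 5, where 0 allows up to 3 counts, by counting error alone.

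The sequences most like each member over the 6 libraries, by Pearson's r of log2 CPM, differed between the members. For miR-462 they were an arm of miR-25 (ssa-miR-25-5p_2ss9TA23CT, r = 0.96), a predicted RNA (PC-3p-2180_946, r = 0.94) and an arm of miR-181b (gga-miR-181b-5p_R+1, r = 0.93). For miR-731 they were miR-7132 (ccr-miR-7132_1ss11AT, r = 0.97), miR-10b (dre-miR-10b-5p_R-1, r = 0.96) and miR-10c (ccr-miR-10c_R-1, r = 0.96). miR-7132 was rare, at 2.21 to 6.17 CPM over the 6 libraries. miR-10b, a member of a microRNA family that lies among the Hox genes, had 84.8, 88.5 and 230 CPM in control pools a, b and c and 65.5, 112 and 187 CPM in hypoxia pools a, b and c. miR-10c had 1128 CPM and 1105 CPM in control c and hypoxia c, against 374 to 473 CPM in the other 4 libraries. miR-731 and miR-462 themselves had r = 0.78, which placed miR-731 at place 24 among the sequences most like miR-462. These values are descriptions over 6 libraries, with no test, and all sequences of a library share its depth and scaling.

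Markers of the liver and of other cell types were read from the same libraries. The hepatocyte microRNAs miR-122, miR-192 and miR-194 summed to between 316117 and 633684 CPM. Most of this sum was miR-122, with 305734 CPM in control a and 626879 CPM in control c. Part of that gap is scaling, since the TMM factors were 1.40 in control a and 0.868 in control c. As a share of raw counts, the most abundant miR-122 sequence took 42.7% in control a and 54.3% in control c. Between those libraries the other markers went the other way. miR-192 had 7646 CPM in control a and 5054 CPM in control c, and miR-194 had 2737 CPM and 1751 CPM. Leukocyte microRNAs (4 of 4 found) summed to 1339 to 1634 CPM in control and 1226 to 1429 CPM in hypoxia, and muscle microRNAs (4 of 4) to at most 219 CPM. Red cell microRNAs (2 of 2) summed to 5134 to 13286 CPM in control and 3599 to 7772 CPM in hypoxia, with the highest value in control a. Pancreas microRNAs (3 of 3) summed to 143 to 820 CPM in control and 405 to 1381 CPM in hypoxia. Vessel microRNAs (3 of 3, miR-126, miR-143 and miR-145) summed to 24683 CPM in control c and 24955 CPM in hypoxia c, against 16300 to 19448 CPM in the other 4 libraries. Both members also had their highest level of each group in the c library. The leukocyte markers miR-155 and miR-223 did so too, while miR-142 and miR-150 did not in both groups. The single vessel markers differed: miR-126 and miR-145 were highest in the c library of each group, while miR-143 had 3134 CPM in control c against 3482 CPM in control a, and 3971 CPM in hypoxia c against 4472 CPM in hypoxia a. No vessel marker was at 0, and their part in the levels of the members was not tested. In pooled tissue, fewer cells of a type and less RNA per cell cannot be told apart.

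Messages reported around the 2 microRNAs in other fishes were read from the mRNA libraries, which held 32652402 to 35852327 counts against 4510789 to 7049929 in the small RNA libraries. The genes were the HIF subunits hif1a, epas1, arnt and arnt2, and ddx5 and ppm1d, described as targets of the pair in zebrafish. An assembled component was found for 6 of 14 symbols searched, and irf7, a target reported in olive flounder, was not analysed here. Taking the most abundant component for each name, 0 of 5 tested genes rose and 0 fell in edgeR. At an unadjusted p under 0.05 there were 2 (Epas1 and DDX5), both higher, against 12.3% of all components higher and 9.57% lower, and DESeq2 called 1 (DDX5) and limma-voom 0. Over all 25415 components 4.56% rose and 1.8% fell, and the median log2 fold change was 0.40 for the 5 and -0.003 for all. hif1a (comp16248_c0), the oxygen-labile subunit of HIF-1, had 58.9, 61.8 and 59.7 CPM in control pools a, b and c and 87.1, 74 and 58.3 CPM in hypoxia pools a, b and c. Hypoxia c lay below all 3 controls and the other two above them, and the log2 fold change was 0.28 (edgeR adjusted p = 0.41). Epas1 (comp19680_c0), a symbol for HIF-2 alpha on a component annotated as HIF-1 alpha, had 293, 292 and 267 CPM in control and 455, 387 and 337 CPM in hypoxia. Those groups did not overlap, as for 28.3% of all components in either direction, and its log2 fold change was 0.47 (edgeR adjusted p = 0.16). EPAS1 (comp19126_c0), annotated as HIF-2 alpha, stood the other way, with 206, 225 and 200 CPM in control and 163, 186 and 158 CPM in hypoxia (log2 fold change -0.32, edgeR adjusted p = 0.29). Its groups did not overlap either. Less abundant components named for hif1a had 0.49 (HIF1A, comp19733_c0, annotated as HIF-2 alpha, edgeR adjusted p = 0.49) and 0.51 (hif1a, comp664_c0, adjusted p = 0.57). The value for arnt (comp17701_c0), the stable partner subunit, was 0.40 (adjusted p = 0.37).

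Components named DDX5, an RNA helicase that takes part in splicing, transcription and microRNA processing, had fold changes of opposite sign. The most abundant (comp11805_c0) had 82.2, 81.5 and 76 CPM in control pools a, b and c and 135, 123 and 106 CPM in hypoxia pools a, b and c. All 3 hypoxia values lay above all 3 controls, where 28.3% of all components had groups that did not overlap, in either direction. Its log2 fold change was 0.60 (SE 0.17, edgeR adjusted p = 0.066). With the letter as a replicate block, a pairing that no label gives, the edgeR adjusted p was 0.042. A second component (comp15736_c0) fell, with 11.3, 11.3 and 12.3 CPM in control pools a, b and c and 8.13, 6.55 and 5.1 CPM in hypoxia pools a, b and c. Its log2 fold change was -0.82 (SE 0.20, edgeR adjusted p = 0.046), and the call ended without each single library other than hypoxia a (adjusted p 0.068 to 0.15) and with no low-count filter (0.061). Another (Ddx5, comp15736_c1), numbered beside it in the assembly, stood lower in hypoxia by a log2 fold change of -0.72 (edgeR adjusted p = 0.058, or 0.045 with the block). Reads of similar helicases could be split among these 3 components, so each is uncertain as a measure of the gene.

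The other reported target did not pass. PPM1D (comp14349_c0), a phosphatase of the DNA damage response, had 3.94, 4.15 and 3.11 CPM in control pools a, b and c and 4.14, 2.93 and 2.65 CPM in hypoxia pools a, b and c (log2 fold change -0.21, edgeR adjusted p = 0.67). The groups overlapped.

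**Figure D4:**
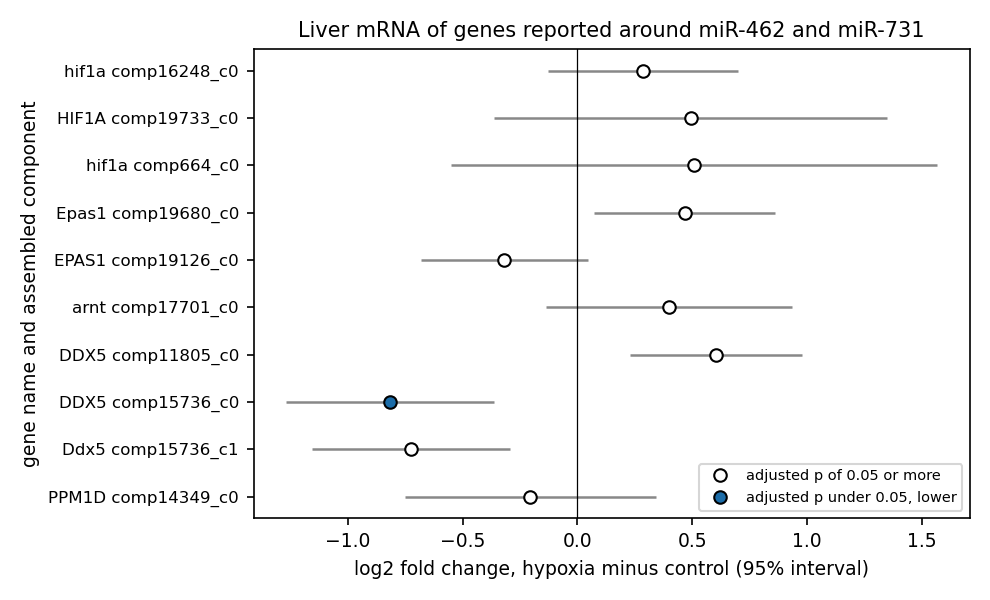
Log2 fold change (hypoxia minus control) with its 95% interval for each tested mRNA component named hif1a, epas1, arnt, ddx5 or ppm1d. The filled point, comp15736_c0 at -0.82, is the component past the threshold, and the most abundant DDX5 component lies on the other side of 0, at 0.60.

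Genes of the interferon response were read because the cluster is described as part of it. Of 31 symbols searched 17 were found, and of 16 tested 1 rose and 0 fell in edgeR, against 4.56% and 1.8% of all components. At an unadjusted p under 0.05, 1 stood higher and 4 lower, where 12.3% and 9.57% of all components did. The higher one was Tlr3, and the lower ones were IRF2, Irf5, Eif2ak2 and SOCS1. DESeq2 called 1 higher (Tlr3) and 1 lower (SOCS1). Of the log2 fold changes 11 of the 16 lay below 0, where 50.2% of those of all components did. The median was -0.29 for the 16 and -0.003 for all components. The gene that rose was Tlr3 (comp19167_c0), a receptor for double-stranded RNA, with 11.5, 12.8 and 7.51 CPM in control pools a, b and c and 36.1, 26.5 and 18.3 CPM in hypoxia pools a, b and c. Its log2 fold change was 1.35 (SE 0.28, edgeR adjusted p = 0.026), and the call ended without each single library other than hypoxia c (adjusted p 0.052 to 0.11).

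Genes that make and load microRNAs were read as the machinery both members share. Of 23 symbols searched 14 were found, and of 13 tested 0 rose and 0 fell in edgeR, against 4.56% and 1.8% of all components, with a median log2 fold change of -0.18. At an unadjusted p under 0.05, 2 stood higher (EIF2C3 and EIF2C4) and 2 lower (DROSHA and tarbp2), where 12.3% and 9.57% of all components did, and DESeq2 called 1 (EIF2C3). EIF2C3 (comp17766_c0), an older name for Argonaute 3, had 3.59, 6.36 and 3.05 CPM in control pools a, b and c and 14.6, 10.7 and 6.1 CPM in hypoxia pools a, b and c. Hypoxia c lay below control b. Its log2 fold change was 1.27 (SE 0.36, edgeR adjusted p = 0.076). With the letter as a replicate block, a pairing that no label gives, the edgeR adjusted p was 0.021. Less abundant components of the same name had log2 fold changes of opposite sign, -0.67 (eif2c3, comp631669_c0, edgeR adjusted p = 0.30) and -0.66 (EIF2C3, comp631488_c0, adjusted p = 0.54), so the gene's level is uncertain. EIF2C4 (comp14654_c2), an older name for Argonaute 4, had 0.66 (adjusted p = 0.094 in edgeR). DROSHA (comp15873_c0), the nuclease that cuts the primary transcript, had -0.47 (adjusted p = 0.22 in edgeR), and dicer1 (comp13368_c0), the nuclease that cuts the hairpin, had -0.38 (adjusted p = 0.67 in edgeR). Less abundant dicer1 components had the opposite sign, at 0.15 (comp233723_c0), 0.04 (comp9586_c0) and 0.16 (comp575488_c0). None of them passed, so the direction for dicer1 is uncertain.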

How the data were processed

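Per the labels, mRNA reads were assembled with Trinity. Per the submitters' processing notes, Bowtie was a tool of the small RNA libraries, while DESeq and RSEM 1.2.3 go with mRNA. Other steps are not given in the sources used here. The deposited tables hold expected counts, not scaled and partly with fractions, per mature sequence and per assembled component. The small RNA table also holds signal values that the authors normalized, each a raw count multiplied by a factor fixed within its library (0.8781 to 1.4156), and a p-value from the authors' t test per the file headers.

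Each mature sequence entered once (545 of 613 entries), and sequences with identical values also entered once (471). After rounding to whole numbers, edgeR 4.0.16 was used for the tests (quasi-likelihood, TMM, filterByExpr, Benjamini-Hochberg over all features tested, threshold adjusted p under 0.05, two-sided), leaving 238 sequences and 25415 components. The SE was derived from the size of the log2 fold change and its F statistic. limma 3.58.1, DESeq2 1.42.0, R 4.3.3 and Python 3.11.15 were also used. The edgeR test was also run on simulated counts with changes far larger than those of the members. That run cannot show whether small changes would be found. The ratio of members adds 1 to each count. Alternatives were other scalings, tests and filters, leaving out libraries and the letter as a replicate block.

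Small RNA totals ran from 4510789 to 7049929. Replicate pools differed beyond counting noise. The squared difference between pools over its Poisson variance had a median over features of 9.05 to 41.6 in small RNA and 1.43 to 4.06 in mRNA. Pools were scaled by their totals there, so differences in library make-up enter these values. Correlations across features of deviations from group means between the same letters were 0.13, 0.50 and 0.56 in small RNA and 0.15, 0.19 and 0.31 in mRNA, all above 0.1, so letters were treated as pairs in the block. No label gives this pairing. Hypoxia a went with control b more than with control a, at 0.42 against 0.13 in small RNA and 0.18 against 0.15 in mRNA.

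The members and gene lists were chosen with earlier results of these data known. By rule the text names both members, sequences with their seeds, miR-191 and miR-425 entries, the 3 sequences most like each member, the reported genes, and in the other lists those past the threshold or the 2 with the smallest adjusted p. Some genes of the lists are not reported here and were left out of the counts. Genes at an unadjusted p under 0.05 were named too, and DROSHA and dicer1 were added after their values were seen. For several components of 1 name, the most abundant stood for the gene. Gene symbols come from the deposited table.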

Additional observations from a re-analysis of the deposited data

How the results depend on the processing

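Neither member passed the threshold under any of the 16 alternatives, of which keeping sequences with identical values apart left both fold changes as they were. The log2 fold change of miR-462 was -0.07 with raw library totals and -0.13 with totals that leave out the most abundant sequence, and it ran from -0.18 to 0.23 when single libraries were left out. That of miR-731 ran from -0.73 to 0.06 when single libraries were left out. With the letter as a replicate block the values were 0.11 and -0.32, and neither passed (edgeR adjusted p = 0.79 and 0.50). The difference in log2 ratio had 9 alternatives, but only leaving out single libraries could move it much. It kept its sign in those, at 0.26 to 0.62. The others could not turn the sign. Each member has 1 sequence to sum, a pseudocount of 0.5 is small beside these counts, and sign flips use the same difference. Flipping signs within letters gave an exact p = 0.25, the smallest that 3 pairs allow. The cause of the changes in sign was not tested. A ratio of arms could not be computed, since each member has 1 entry.

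Small RNA calls (1 higher, 0 lower) were 0 higher with raw totals, 2 lower with the replicate block, and 5 higher and 6 lower without both c libraries. They ran from 0 to 1 higher and stayed at 0 lower without single libraries. In mRNA (1159 higher, 458 lower) the lower calls were 797 in DESeq2 and 798 with the replicate block. Without both c libraries 2337 were higher and 1479 lower, and without single libraries the higher calls ran from 338 to 1337 and the lower from 45 to 518.

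In the reported list 1 gene rose in DESeq2 and 1 with the replicate block, and 2 rose without both c libraries (DDX5 and Epas1). Without single libraries 0 to 1 rose, and with every component 1 fell. In the interferon list, where 1 rose, 0 to 1 rose and 0 to 1 fell without single libraries, 1 fell in DESeq2, and 2 fell without both c libraries (mx1 and SOCS1). In the processing list 1 rose in DESeq2, 1 with the replicate block, and without both c libraries 1 rose (EIF2C3) and 1 fell (tarbp2). Without single libraries 0 to 1 rose. HIF1A (comp19733_c0) changed sign without a call, to -0.16 without both c libraries. The setting without both c libraries for small RNA, the totals without the most abundant sequence, the authors' normalized values and the count over every component were chosen after seeing the data.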
